A study of Mus musculus with 30 samples.

Results

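The 10 genes described here are ligands and receptors of the Notch pathway and factors of the Hes and Hey families. They were taken by symbol from count tables of 26264 gene symbols. They are the receptors Notch1 and Notch2, the ligands Dll1, Dll4, Jag1 and Jag2, and the transcription factors Hes1, Hes6, Hey1 and Heyl. All 10 passed the filter on low counts, as did 17136 symbols in all. RNA was sequenced from the tibialis anterior, a shin muscle that lifts the foot, in mice of both sexes. Muscles were uninjured or had lost a block of tissue larger than the muscle can rebuild, known as volumetric muscle loss, 4, 7, 11 or 15 days earlier. The 2 sexes and 5 times give 10 groups of 3 libraries, so 6 libraries stand at each time. The sources used here give no strain, genotype or age and do not say whether each library is a separate animal, so p-values rest on the spread among libraries, which may be technical.

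Notch signalling passes between touching cells. A Delta-like or Jagged ligand on one cell pulls on a Notch receptor on its neighbour, the receptor is cut by ADAM proteases and then by the gamma-secretase complex, and the freed intracellular part joins RBPJ and Mastermind in the nucleus to switch on genes of the Hes and Hey families. Hes1, Hey1 and Heyl are repressors of this class, and Hes6 is a relative that can oppose Hes1 and accompanies differentiation. In skeletal muscle the pathway is known for keeping satellite cells, the muscle stem cells, quiescent and for holding back their differentiation. In blood vessels Dll4 marks arterial and sprouting endothelium, and Jag1 and the Hey factors serve the vessel wall.

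Promoter sequence was taken from RefSeq (GRCm38.p6), where 7 of the 10 genes had a window and Hes1, Hey1 and Heyl had none. The windows hold the 250 bases before an annotated start and are not coordinates of the deposited count tables, which were made on another build. They are shown for Hes6 and Dll1, whose levels were high early after injury, and for Dll4, whose level was high late, so that a reader can see where they carry the E-box CAGCTG, a hexamer bound by muscle bHLH factors. Capitals mark it; it is its own reverse complement, so 1 search covers both strands. The windows lie at chr1:91414039-91414288 on the minus strand (Hes6, start 1), chr1:91413223-91413472 on the minus strand (Hes6, start 2), chr17:15376933-15377182 on the minus strand (Dll1, start 2) and chr2:119325534-119325783 on the plus strand (Dll4), each written 5′ to 3′ along the gene.
Hes6 start 1: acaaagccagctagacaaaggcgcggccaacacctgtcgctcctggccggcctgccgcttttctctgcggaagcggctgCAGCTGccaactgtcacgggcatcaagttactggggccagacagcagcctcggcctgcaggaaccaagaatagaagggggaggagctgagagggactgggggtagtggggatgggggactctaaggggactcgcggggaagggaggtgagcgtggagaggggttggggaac
Hes6 start 2: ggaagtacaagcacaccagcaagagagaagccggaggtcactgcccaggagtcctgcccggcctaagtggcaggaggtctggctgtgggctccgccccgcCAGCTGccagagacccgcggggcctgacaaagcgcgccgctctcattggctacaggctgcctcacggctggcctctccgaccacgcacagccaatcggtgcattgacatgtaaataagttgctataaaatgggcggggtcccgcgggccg
Dll1 start 2: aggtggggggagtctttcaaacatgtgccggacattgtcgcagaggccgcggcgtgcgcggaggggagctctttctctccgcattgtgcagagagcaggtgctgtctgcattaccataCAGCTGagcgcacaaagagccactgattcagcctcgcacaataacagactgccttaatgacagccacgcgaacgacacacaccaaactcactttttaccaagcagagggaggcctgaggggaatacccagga
Dll4: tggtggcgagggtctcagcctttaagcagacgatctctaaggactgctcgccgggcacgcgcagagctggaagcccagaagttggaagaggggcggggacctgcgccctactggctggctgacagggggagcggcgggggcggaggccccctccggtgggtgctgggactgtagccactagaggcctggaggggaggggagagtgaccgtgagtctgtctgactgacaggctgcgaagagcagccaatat
CAGCTG stood 171 and 150 bases before the 2 starts of Hes6, 132 bases before start 2 of Dll1 and 82 bases before the start of Jag1. It was not among these letters for Dll4, Notch1, Notch2, Jag2 or start 1 of Dll1. The hexamer did not follow the early and late split of the windows shown. Notch2 had its highest mean at day 4 and lacked it, and Jag1 had its highest mean at day 15 and held it. Of 32851 windows of the same length, 13% held it. TGGGAA, the core bound by RBPJ, was searched on both strands and was in no window of the 7 genes, against 21.6% of all windows. Hes1, Hey1 and Heyl could not be searched for either hexamer. These matches describe letters and are not binding sites.

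Levels are CPM, each gene's share of a library's counts on the usual per-library scale, after scaling by trimmed mean of M values (TMM). Total counts were 13089999 to 57277336 per library. The mean TMM factor was 0.527 in uninjured libraries and 1.08 to 1.30 in injured ones, and mature fibre genes summed to 308252 to 457918 CPM in uninjured muscle against 8993 to 136690 after injury, so directions against uninjured muscle depend on the scaling. The median gene stood 0.17, 0.24, 0.32 and 0.26 above uninjured muscle on the log2 scale at days 4, 7, 11 and 15 with TMM, and 1.47, 1.42, 1.46 and 1.30 above it with library size alone. Fold changes are log2 values from edgeR's quasi-likelihood test over all 30 libraries, given ± SE. P-values were adjusted by Benjamini-Hochberg over the tested genes, and called here means an adjusted p below 0.05.

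The library labelled female day 11 replicate 3 went against its label: it held the Y-linked Ddx3y at 57.4 CPM, which was 0 in the other 14 libraries labelled female, and Xist at 0.109 CPM, against 83.0 to 1062 CPM in those 14. It had the highest level among the 6 day 11 libraries for 7 of the 10 genes. Its macrophage markers summed to 177 CPM against 323 to 1779 in the other 5, and its differentiating muscle markers to 615 CPM against 1288 to 3325. It was kept under its label. Without it the day 11 changes were 1.83 for Hes6, 1.66 for Heyl, 0.99 for Jag1, 0.02 for Hey1 and 5.86 for Dlk1, beside the values given further on, and those for the other 6 genes stand beside their results. The marker counts given further on with TMM were the same without it, except for 2 lists. At day 4, 10 endothelial markers and 2 satellite cell markers were lower, rather than 9 and 1. At day 15, 2 satellite cell markers were lower, rather than 1.

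**Figure D1:**
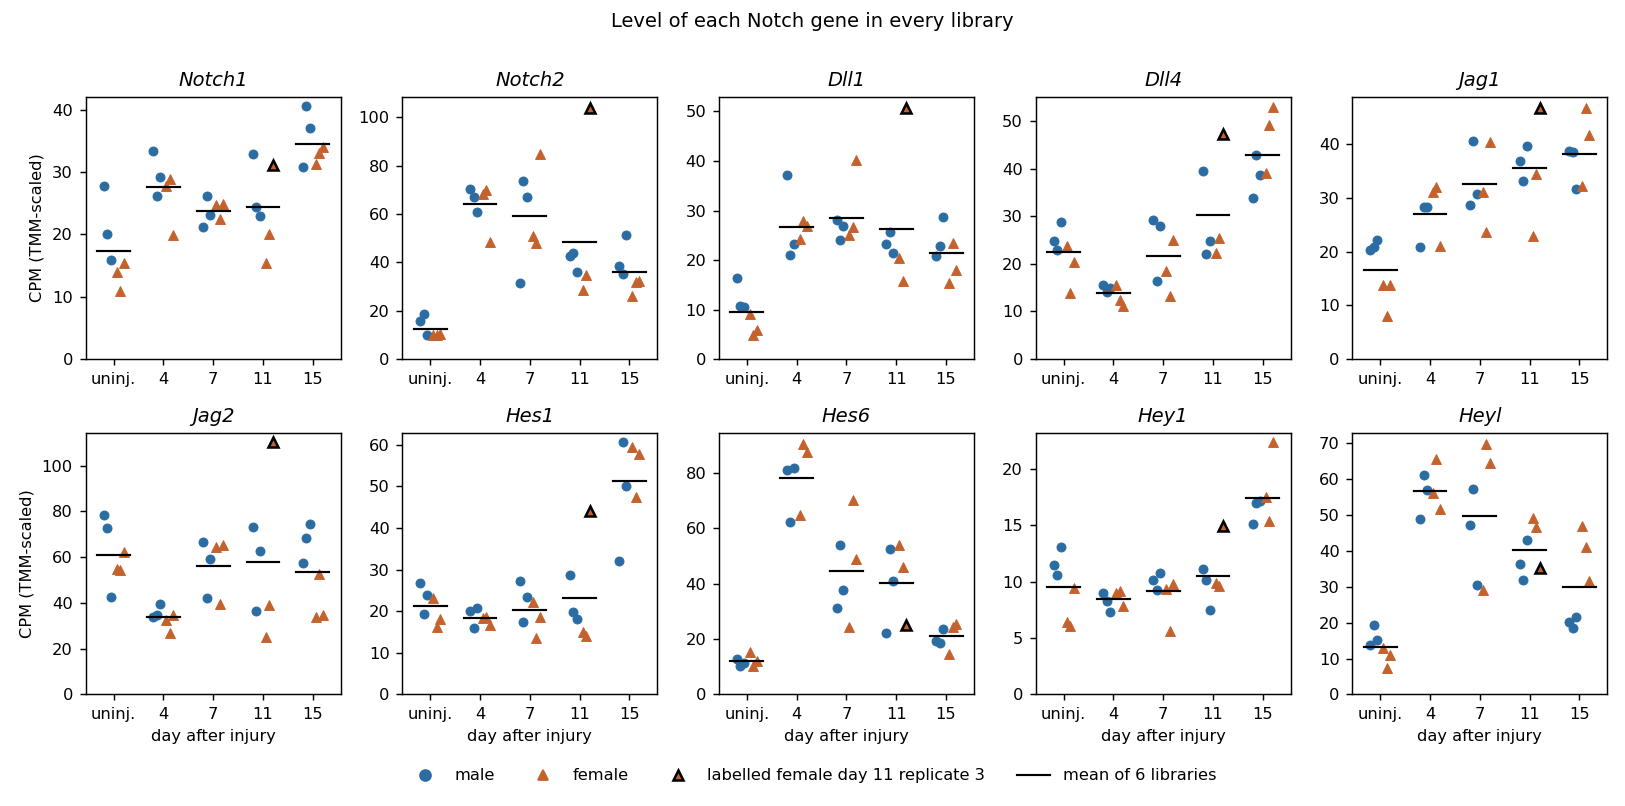
Level of each of the 10 genes in CPM (TMM-scaled, linear axes from 0) at each time, with 1 point per library (circles male, triangles female, black outline for the library labelled female day 11 replicate 3) and a line at the mean of the 6 libraries. Notch2, Hes6 and Heyl had their highest means at day 4, and Dll4, Hes1 and Hey1 had theirs at day 15.

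The receptors Notch1 and Notch2 were both higher at all 4 days. Notch2, the receptor that works with Notch1 in satellite cells, ran from 9.83 to 18.5 CPM in uninjured muscle (median 10.2) and from 48.5 to 70.2 CPM at day 4 (median 67.6). Every library at every day after injury lay above every uninjured library. The log2 fold change was 2.40 ± 0.26 at day 4 (edgeR adjusted p = 1.2e-08), 2.28 ± 0.26 at day 7 (4.0e-08), 1.97 ± 0.26 at day 11 (2.9e-07) and 1.54 ± 0.26 at day 15 (9.8e-06). At day 11 the library that goes against its label stood at 104 CPM and the other 5 at 28.7 to 43.9 CPM, and the change without it was 1.52.

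Notch1 had smaller changes and its highest mean at day 15. It ran from 11.0 to 27.7 CPM in uninjured muscle (median 15.7), from 19.8 to 33.4 CPM at day 4 (median 28.3) and from 30.8 to 40.5 CPM at day 15 (median 33.6). The groups overlapped at days 4, 7 and 11 and separated at day 15. The log2 fold changes were 0.70 ± 0.16, 0.49 ± 0.16, 0.53 ± 0.16 and 1.03 ± 0.16 at days 4, 7, 11 and 15 (edgeR adjusted p = 0.00046, 0.0096, 0.0057 and 5.9e-06). Without female day 11 replicate 3 the day 11 change was 0.32 (adjusted p = 0.062) and was no longer called, nor was it in a fit of the uninjured and day 11 groups alone (0.47, adjusted p = 0.053). Per kilobase of exon the receptors were alike in uninjured muscle, with 1.15 ± 0.35 CPM per kb for Notch2 and 1.22 ± 0.41 for Notch1 (mean ± SD, n = 6). At day 4 they stood at 5.95 ± 0.78 and 1.93 ± 0.31 CPM per kb.

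The 4 ligands did not move together: Dll1 and Jag1 were higher at every day, Dll4 was lower at day 4 and higher at day 15, and Jag2 was lower at day 4 alone among the 4 days, although by library size alone both stood above uninjured muscle at day 4 (0.63 and 0.45). Dll1, the Delta-like ligand made by activated and differentiating muscle cells, ran from 4.92 to 16.4 CPM in uninjured muscle (median 9.83), from 21.1 to 37.3 CPM at day 4 (median 25.6) and from 24.1 to 40.2 CPM at day 7 (median 26.8). The injured libraries of days 4 and 7 all lay above the uninjured ones, while days 11 and 15 overlapped them. The log2 fold change was 1.56 ± 0.23 at day 4, 1.64 ± 0.23 at day 7, 1.52 ± 0.23 at day 11 and 1.23 ± 0.23 at day 15 (edgeR adjusted p = 1.6e-06, 1.0e-06, 2.7e-06 and 4.7e-05). Without female day 11 replicate 3, which stood at 50.6 CPM against 15.8 to 25.7 in the other 5, the day 11 change was 1.14.

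Dll4, the ligand of arterial and sprouting endothelium, ran from 13.9 to 28.9 CPM in uninjured muscle (median 23.4) and from 11.1 to 15.6 CPM at day 4 (median 14.5). At day 15 it ran from 34.0 to 53.0 CPM (median 41.0). Day 4 was the low point and overlapped the uninjured range at its edge, and day 15 lay wholly above the uninjured range. The log2 fold changes were -0.68 ± 0.20, -0.05 ± 0.20, 0.44 ± 0.20 and 0.94 ± 0.20 at days 4, 7, 11 and 15 (edgeR adjusted p = 0.0042, 0.85, 0.051 and 0.00024). The day 4 change was 0.63 with library size alone, where the median gene stood at 1.47. Against the median gene Dll4 stood 0.84 lower by either scaling (-0.84 with TMM and -0.84 with library size alone). A change of scaling moves the median gene and each gene by nearly the same amount. The likeness of these values is therefore by construction and is not separate evidence for a fall. At day 11 the change passed the threshold under 7 of the 30 fits that left out 1 library and under 6 of the other 9 settings: DESeq2 (0.46, adjusted p = 0.040), RLE size factors (0.042), CPM above 1 in 3 libraries (0.047), halved counts (0.048), thinning to the smallest total (0.027) and library size alone (4.2e-07). It was 0.19 without female day 11 replicate 3.

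Jag1, a ligand of vessel wall and stromal cells, ran from 8.04 to 22.2 CPM in uninjured muscle (median 17.1) and from 31.7 to 46.7 CPM at day 15 (median 38.6). Its means were 26.9 ± 4.9 CPM at day 4 and then 32.5 ± 6.8, 35.6 ± 7.9 and 38.3 ± 5.7 CPM (mean ± SD, n = 6), and the ranges of neighbouring days overlapped. The log2 fold changes were 0.77 ± 0.18, 1.04 ± 0.18, 1.17 ± 0.18 and 1.27 ± 0.18 (edgeR adjusted p = 0.00045, 1.5e-05, 2.8e-06 and 1.1e-06). Days 7, 11 and 15 lay wholly above the uninjured libraries.

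Jag2, the second Jagged ligand, was the most abundant ligand per kilobase in uninjured muscle by its mean. It ran from 42.4 to 78.2 CPM there (median 58.5) and from 26.7 to 39.3 CPM at day 4 (median 34.3), below every uninjured library. Its log2 fold change was -0.85 ± 0.25 at day 4 (edgeR adjusted p = 0.0042), and -0.11 ± 0.25, -0.07 ± 0.25 and -0.23 ± 0.25 at days 7, 11 and 15 (adjusted p = 0.71, 0.81 and 0.43). It was 0.45 at day 4 by library size alone. Against the median gene it was -1.02 with TMM and -1.01 with library size alone, values that are alike by construction, as for Dll4. At day 11 the libraries spread from 25.3 to 110 CPM, the highest being female day 11 replicate 3, and without that library the change was -0.54 (adjusted p = 0.019).

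The mean levels per kilobase put the ligands in a different order early and late. In uninjured muscle Jag2 stood at 8.73 ± 1.89 CPM per kb, Dll4 at 5.83 ± 1.30, Jag1 at 2.83 ± 0.95 and Dll1 at 2.27 ± 0.98 (mean ± SD, n = 6). At day 4 Dll1 led with 6.34 ± 1.36, and Jag2, Jag1 and Dll4 stood at 4.83 ± 0.59, 4.62 ± 0.84 and 3.62 ± 0.48 CPM per kb. At day 15 Dll4 led with 11.1 ± 1.8, and Jag2, Jag1 and Dll1 followed at 7.68 ± 2.41, 6.57 ± 0.98 and 5.10 ± 1.09. Jag1 and Dll1 in uninjured muscle, and Jag2 and Jag1 at days 4 and 15, lay within 1 SD of each other, and the orders were not tested.

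Of the transcription factors, Hes6 and Heyl were high from day 4, while Hes1 and Hey1 passed the test at day 15 alone among the 4 days with TMM, and stood at 1.10 and 1.17 at day 4 by library size alone. Hes6, the relative of Hes1 that accompanies differentiation, ran from 10.1 to 15.2 CPM in uninjured muscle (median 11.7) and from 62.1 to 90.4 CPM at day 4 (median 81.4). It then ran from 14.6 to 25.4 CPM at day 15 (median 21.5), which overlapped the uninjured libraries. The log2 fold change was 2.70 ± 0.25 at day 4 (edgeR adjusted p = 7.5e-10), 1.89 ± 0.24 at day 7 (2.4e-07), 1.74 ± 0.24 at day 11 (6.4e-07) and 0.81 ± 0.24 at day 15 (0.0042).

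Heyl, a Hey-family repressor of vessel wall and muscle cells, ran from 7.50 to 19.2 CPM in uninjured muscle (median 13.3) and from 49.0 to 65.5 CPM at day 4 (median 56.6). At day 15 it ran from 18.5 to 47.0 CPM (median 26.6), and its lowest library alone lay within the uninjured range. The log2 fold changes were 2.13 ± 0.20, 1.93 ± 0.20, 1.63 ± 0.19 and 1.12 ± 0.19 (edgeR adjusted p = 7.8e-10, 6.1e-09, 6.8e-08 and 1.5e-05). At day 15 the 3 male libraries stood at 18.5 to 21.6 CPM and the 3 female libraries at 31.7 to 47.0 CPM, and the sexes did not overlap.

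Hes1, the classical Notch target, ran from 16.3 to 26.8 CPM in uninjured muscle (median 21.3) and from 15.99 to 20.8 CPM at day 4 (median 18.6). At day 15 it ran from 32.0 to 60.5 CPM (median 53.9), above every uninjured library. The log2 fold changes were -0.20 ± 0.23, -0.07 ± 0.23 and 0.13 ± 0.23 at days 4, 7 and 11 (edgeR adjusted p = 0.43, 0.80 and 0.61) and 1.27 ± 0.23 at day 15 (2.8e-05). At day 11 female day 11 replicate 3 stood at 44.1 CPM and the other 5 at 14.1 to 28.6 CPM, and without it the day 11 change was -0.29. The day 4 and day 7 changes were 1.10 and 1.09 with library size alone.

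Hey1, a Hey-family repressor of endothelium and quiescent satellite cells, ran from 6.08 to 13.1 CPM in uninjured muscle (median 10.02) and from 7.33 to 9.17 CPM at day 4 (median 8.65). At day 15 it ran from 15.1 to 22.4 CPM (median 17.1), above every uninjured library. The log2 fold changes were -0.13 ± 0.16, -0.02 ± 0.16 and 0.18 ± 0.16 at days 4, 7 and 11 (edgeR adjusted p = 0.47, 0.90 and 0.32) and 0.91 ± 0.16 at day 15 (2.7e-05). Scaling by library size alone gave 1.17 and 1.15 at days 4 and 7. Per kilobase Hes6 led the factors at day 4 with 43.1 ± 6.5 CPM per kb against 9.05 ± 0.92 for Hes1, and Hes1 led at day 15 with 25.2 ± 5.3 against 11.6 ± 2.3 for Hes6 (mean ± SD, n = 6).

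**Figure D2:**
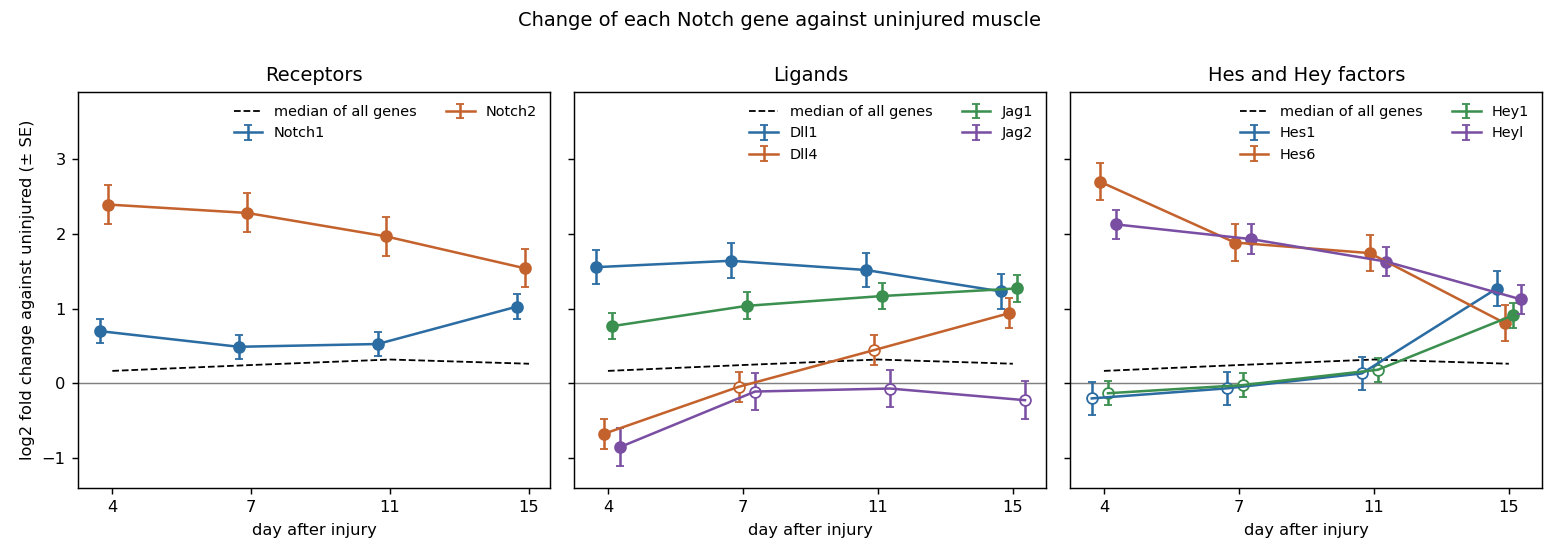
Log2 fold change of each gene against uninjured muscle at days 4, 7, 11 and 15, with bars of ± 1 SE from edgeR, filled circles where the change was called and open circles where it was not; the dashed line is the median of all tested genes. Hes6 fell from 2.70 at day 4 to 0.81 at day 15 while Hes1 went from -0.20 (1.10 by library size alone) to 1.27.

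Counted together, 8 of the 10 genes were called at day 4, 6 of them higher and 2 lower, where 73.1% of all tested genes were called, 40.1% higher and 33% lower. At day 7, 6 were called, all higher (71.5% of all genes called, 41.6% higher and 29.9% lower). At day 11, 6 were called, all higher (72.4% of all genes called, 42.7% higher and 29.7% lower). At day 15, 9 were called, all higher (69% of all genes called, 39.7% higher and 29.3% lower). The median log2 fold change of the 10 genes was 0.73, 0.76, 0.85 and 1.08 at the 4 days, beside 0.17, 0.24, 0.32 and 0.26 for all tested genes. The 4 comparisons share the 6 uninjured libraries, so their counts are not separate evidence. The injured and uninjured ranges did not overlap for 5, 5, 4 and 6 of the 10 genes, beside 56.9%, 44.2%, 46.2% and 45.2% of all genes. With library size alone, 9, 10, 10 and 10 of the 10 genes were called, all higher. That scaling called 14085, 13877, 14037 and 13316 of all 17136 tested genes. Of those called, 89.5%, 91.3%, 90.1% and 89.8% were higher. Dll4 made it 7 at day 11 with RLE size factors, CPM above 1 in 3 libraries, halved counts, thinning or DESeq2. Without female day 11 replicate 3, day 11 had 5 genes called higher and 1 lower.

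Between days, Hes6 fell and Dll4, Hes1 and Hey1 rose. From day 4 to day 15, 5 of the 10 genes rose and 3 fell, beside 52.1% of all genes called (25.1% higher and 27% lower), and the ranges of 5 of the 10 did not overlap, beside 35.8% of all genes. Those that rose were Dll4 (1.61 ± 0.21, edgeR adjusted p = 1.2e-06), Hes1 (1.47 ± 0.23, 1.2e-05), Hey1 (1.04 ± 0.16, 1.3e-05), Jag2 (0.63 ± 0.25, 0.041) and Jag1 (0.51 ± 0.18, 0.019). Those that fell were Hes6 (-1.89 ± 0.24, 1.2e-06), Heyl (-1.004 ± 0.19, 0.00012) and Notch2 (-0.85 ± 0.25, 0.0060). With library size alone 3 rose and 3 fell, and Jag1 (0.23) and Jag2 (0.37) were no longer called. That scaling called 9011 of all genes from day 4 to day 15, 2773 higher and 6238 lower. Jag1 was also lost without male day 4 replicate 1, female day 4 replicate 3 or female day 15 replicate 2. Jag2 was also lost without any 1 of 10 libraries: male day 4 replicate 1, 2 or 3, female day 4 replicate 1 or 2, female day 7 replicate 3, male day 11 replicate 3, male day 15 replicate 2 or 3, or female day 15 replicate 2. It was lost with no low-count filter too (0.60, adjusted p = 0.051).

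The steps between successive days split this course. From day 4 to day 7, Dll4 (0.63 ± 0.20, edgeR adjusted p = 0.018) and Jag2 (0.74 ± 0.25, 0.025) rose and Hes6 fell (-0.82 ± 0.23, 0.0095), 3 of the 10 genes beside 35.2% of all genes (18.5% higher and 16.7% lower); 1 of the 10 had ranges that did not overlap, beside 12.4% of all. By library size alone 1 of these calls was kept, the fall of Hes6, where 5457 of all genes were called, 2019 higher and 3438 lower. Both rises were lost without female day 4 replicate 2, male day 7 replicate 1 or female day 7 replicate 3, each of which left 1 call, and the rise of Jag2 also without male day 4 replicate 1 or 2. From day 7 to day 11 none of the 10 was called by edgeR or DESeq2, beside 0.0584% of all genes called by edgeR. An unadjusted p under 0.05 was found for 1 of the 10, beside 7.62% of all genes. From day 11 to day 15, Hes1 (1.14 ± 0.23, adjusted p = 0.0046) and Hey1 (0.73 ± 0.16, 0.011) rose and Hes6 fell (-0.94 ± 0.24, 0.024), 3 of the 10 beside 4.24% of all genes. Ranges did not overlap for 1 of the 10, Hey1, beside 2.44% of all genes. The fall of Hes6 was lost without male day 11 replicate 2 or 3, female day 11 replicate 1 or 2, male day 15 replicate 2 or female day 15 replicate 1. Without female day 11 replicate 3, 5 of the 10 were called over this step. The share of all genes called in that fit is not given here. The count of all genes over this step also moved when 1 library was left out. A fit of the day 11 and day 15 groups alone called 1 of the 10, Hey1, and 412 of all genes. Library size alone lost Hey1 (0.61, edgeR adjusted p = 0.075).

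Ratios of 2 genes within a library do not depend on the scaling between libraries. The count of Hes6 divided by that of Hes1 ran from 0.470 to 0.665 in uninjured libraries (median 0.577) and from 3.51 to 5.28 at day 4 (median 3.99). At day 15 it ran from 0.246 to 0.607 (median 0.454), within or below the uninjured range. The mean log2 ratio was 2.89 above uninjured muscle at day 4, 1.89 at day 7 and 1.65 at day 11 (two-sided exact permutation test, Benjamini-Hochberg adjusted over 16 tests, p = 0.0069, 0.0069 and 0.014). It was -0.46 relative to uninjured muscle at day 15 (adjusted p = 0.066), and this passed without male day 15 replicate 1 (-0.58, adjusted p = 0.017) or female day 15 replicate 2 (-0.53, 0.049). Without female day 11 replicate 3 the day 11 value was 1.98. The smallest p that 6 against 6 libraries can give is 0.0022 before adjustment.

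The count of Dll1 divided by that of Dll4 ran from 0.285 to 0.665 in uninjured libraries (median 0.374), from 1.503 to 2.43 at day 4 (median 1.90) and from 0.342 to 0.740 at day 15 (median 0.504). On this scale of raw counts, not per length, Dll1 exceeded Dll4 in every day 4 library and in no uninjured or day 15 library. The mean log2 ratio was 2.23, 1.73, 1.06 and 0.30 above uninjured muscle at days 4, 7, 11 and 15 (exact permutation test, adjusted p = 0.0069, 0.0069, 0.013 and 0.26). The count of Jag2 divided by that of Jag1 ran from 1.91 to 6.75 in uninjured libraries (median 3.902) and from 0.839 to 2.34 at day 15 (median 1.30), and these ranges overlapped. This ratio was lower at all 4 days, by -1.60, -1.15, -1.37 and -1.499 on the log2 scale (exact permutation test, adjusted p = 0.0069, 0.014, 0.013 and 0.012).

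**Figure D3:**
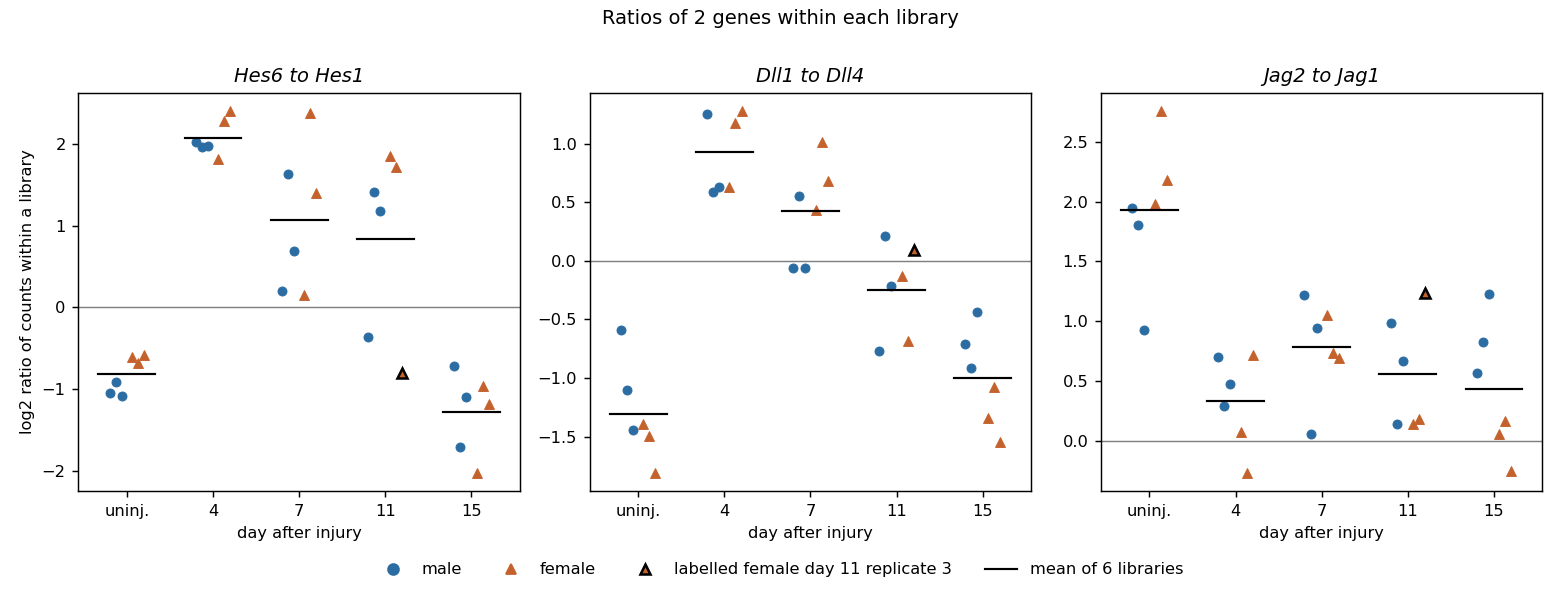
Log2 ratio of the counts of 2 genes within each library at each time (circles male, triangles female, black outline for the library labelled female day 11 replicate 3, line at the mean of 6 libraries, grey line at equal counts). The Hes6 to Hes1 ratio stood above 1 in all 6 day 4 libraries, from 3.51 to 5.28, and below 1 in all 6 day 15 libraries, from 0.246 to 0.607.

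Markers of cell types moved over the same days. In bulk tissue, fewer cells of a type and less RNA per cell cannot be told apart. Of 13 endothelial markers 9 were lower and 0 higher at day 4, and 10 were higher and 1 lower at day 15, whereas by library size alone 11 and then all 13 were higher; their summed level ran from 734 to 1273 CPM in uninjured muscle, 576 to 830 at day 4 and 1400 to 1896 at day 15. Dll4 was low and high on the same days. The 13 markers had a median log2 fold change of -0.71 at day 4 and 0.68 at day 15, beside -0.68 and 0.94 for Dll4. By library size alone the medians were 0.59 and 1.71, beside 0.63 and 1.97. Cdh5 was the only denominator used for Dll4, and at -0.33 on day 4 it changed less than the median marker. The count of Dll4 divided by that of Cdh5, an endothelial cadherin, was lower at day 4 by -0.34 on the log2 scale (exact permutation test, adjusted p = 0.016), and was -0.002, 0.20 and 0.27 relative to uninjured muscle at days 7, 11 and 15 (adjusted p = 0.99, 0.33 and 0.13). The day 15 value passed without male day 15 replicate 1 (0.38, adjusted p = 0.019) or male uninjured replicate 3 (0.36, 0.043), and the day 11 value was 0.087 without female day 11 replicate 3. Cdh5 itself changed by -0.33 ± 0.17 at day 4 (edgeR adjusted p = 0.076) and rose by 0.68 ± 0.17 at day 15 (0.00089), and Pecam1, an endothelial adhesion molecule, changed by -0.28 ± 0.15 (0.092) and rose by 0.54 ± 0.15 (0.0023); by library size alone the day 4 changes were 0.98 and 1.03. Hes1 and Hey1 also rose by day 15 with these markers, and the part of endothelial cells in that was not tested.

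The early genes stood beside other lists. Of 10 satellite cell markers 7 were higher and 1 lower at day 4 (8 and 0 by library size alone), where they summed to 609 to 800 CPM against 265 to 381 in uninjured muscle, and Pax7, their defining factor, rose by 2.68 ± 0.33 at day 4 (edgeR adjusted p = 9.5e-08) and was -0.59 ± 0.34 relative to uninjured muscle at day 15 (0.13), or 0.44 by library size alone. Most of that list differed from Pax7 at day 15, where 6 markers were higher and 1 lower (8 and 1 by library size alone). Their median log2 fold change there was 1.03, beside 0.26 for all genes. Of 9 markers of differentiating muscle 8 were higher at day 4, and Myog, the factor of terminal differentiation, rose by 5.73 ± 0.40 at day 4 (9.9e-12) and 3.65 ± 0.36 at day 15 (6.8e-09). All 6 proliferation genes were higher at all 4 days, with sums of 229 to 476 CPM at day 4, 41.9 to 80.1 at day 15 and 0.250 to 2.73 in uninjured muscle; Mki67 rose by 7.76 ± 0.45 at day 4 (1.2e-12). All 10 macrophage markers were higher at all 4 days, and Adgre1 rose by 6.23 ± 0.52 at day 4 (1.3e-10).

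Vessel wall, stromal and fibre markers differed again. Of 9 pericyte and smooth muscle markers 6 were lower and 2 higher at day 4 (1 lower and 4 higher by library size alone), while Heyl rose. Rgs5, a pericyte gene, fell by 1.41 ± 0.22 (edgeR adjusted p = 3.9e-06), a call lost by library size alone (-0.12). Fibroblast markers were higher for 6 of 8 at day 4 and for all 8 at day 15, with Pdgfra at 2.36 ± 0.20 on day 4 (2.5e-10). All 8 mature fibre genes were lower at all 4 days (7, 7 and 6 of the 8 at days 7, 11 and 15 by library size alone), with Ckm at -4.06 ± 0.55 on day 4 (3.7e-07); Ckm was abundant in every uninjured library, at 19787 to 37096 CPM. Of 6 Schwann cell markers 5 were lower and 1 higher at day 4 (1 lower and 2 higher by library size alone). No marker in these lists was at 0 throughout a time, except Mymx in uninjured muscle. The part of each cell type in the Notch gene changes was not tested.

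**Figure D4:**
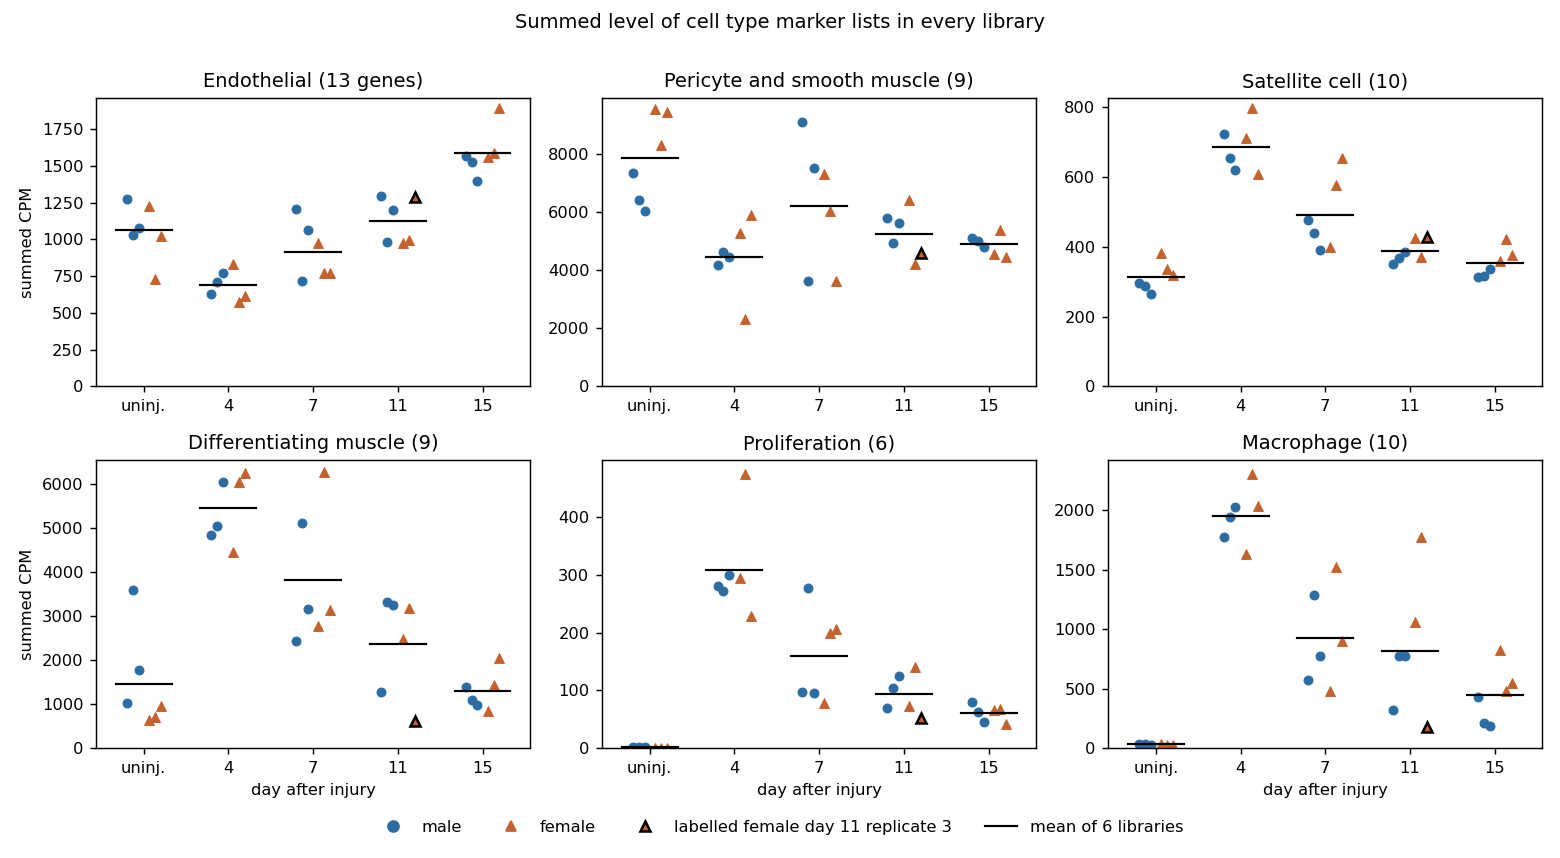
Summed CPM (TMM-scaled) of 6 marker lists in every library at each time (linear axes from 0, circles male, triangles female, black outline for the library labelled female day 11 replicate 3, line at the mean of 6 libraries). The endothelial sum was lowest by its mean at day 4 and highest at day 15 (1400 to 1896 CPM), and the satellite cell, differentiating muscle, proliferation and macrophage sums had their highest means at day 4.

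Among the 10 genes the profiles over the 10 groups of sex and time were compared. Each profile is log2 CPM centred on its mean, and likeness is the root mean square difference over the 10 groups, given as a description without a test. Hes1 and Hey1 were nearest each other (0.21), as were Notch1 and Jag1 (0.28) and Notch2 and Dll1 (0.30). Dll4 was nearest Hey1 (0.27) and farthest from Hes6 (1.31). Hes6 was nearest Heyl (0.40), but Heyl was nearest Notch2 (0.35). Jag2 was nearest Hey1 and not close to it (0.50).

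Among 13045 genes with a mean of at least 1 CPM, the nearest profiles to Dll4 were Esam (0.11), an endothelial adhesion molecule, and Nos3 (0.12), endothelial nitric oxide synthase. Esam had a mean of 85.7 CPM in uninjured muscle, 51.5 at day 4 and 165 at day 15. The nearest to Hes6 were Cenpa (0.13), the centromeric histone variant, and Nsl1 (0.16), a kinetochore protein, and Cenpa went from 4.26 CPM in uninjured muscle to 28.2 at day 4 and 7.64 at day 15. Nearest to Hes1 were Arrdc3 (0.10), an arrestin-domain protein, and Cables1 (0.16), and to Hey1 Arap2 (0.17) and Plcl1 (0.17). Nearest to Notch2 were Gmip (0.13) and Dclre1c (0.14), to Notch1 Bdp1 (0.14) and Epha2 (0.14), and to Heyl Man2b1 (0.19), a lysosomal mannosidase, and Tkt (0.20), transketolase. Dll1 was nearest Btbd19 (0.11) and Hacd2 (0.12), Jag1 nearest Scai (0.09) and Pcdhb17 (0.11), and Jag2 nearest Fbrsl1 (0.08) and Trim68 (0.10).

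Of 43 other genes of the pathway, 41 passed the filter; Dll3 and Hes5 did not. At day 4, 22 were higher and 8 lower, at day 7, 16 and 6, at day 11, 15 and 7, and at day 15, 19 and 7. These are 73.2%, 53.7%, 53.7% and 63.4% of the 41, beside 73.1%, 71.5%, 72.4% and 69% of all genes, so the share was near that of all genes at day 4 and smaller at the later days. Their median log2 fold changes were 0.48, 0.23, 0.25 and 0.44, against 0.17, 0.24, 0.32 and 0.26 for all genes. With library size alone the split was 34 higher and 0 lower, 37 and 1, 38 and 2, and 38 and 1. Of all genes called with that scaling, 89.5%, 91.3%, 90.1% and 89.8% were higher. The list shares the 6 uninjured libraries with all the comparisons above.

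Of the other receptors, Notch3 was called at days 4 and 7 and Notch4 at days 11 and 15. Notch3, a receptor of vessel wall and satellite cells, had a mean of 31.8 ± 11.2 CPM in uninjured muscle and 63.2 ± 12.2 at day 4 (mean ± SD, n = 6), a change of 1.06 ± 0.21 (edgeR adjusted p = 8.0e-05). Its change was 0.68 ± 0.21 at day 7 (0.0061) and 0.44 ± 0.21 at day 15 (0.065). The day 15 change of Notch3 passed under 3 of the 30 fits that left out 1 library. It also passed with DESeq2 (adjusted p = 0.044), and in edgeR with RLE size factors (0.047), thinning (0.026), the groups compared (0.0040) and library size alone (5.1e-06). At day 11 Notch3 passed with thinning (edgeR adjusted p = 0.042) and library size alone (2.3e-06), and under 2 of those 30 fits. Notch4, an endothelial receptor, changed by -0.28 ± 0.18 at day 4 (0.17), or 1.03 with library size alone, and rose by 0.64 ± 0.19 at day 11 (0.0033) and 1.09 ± 0.19 at day 15 (1.4e-05). At day 11 its change was 0.41 (adjusted p = 0.037) without female day 11 replicate 3. Rbpj, the DNA-binding partner of Notch, rose by 1.12 ± 0.21 at day 4 (4.0e-05) and changed by 0.16 ± 0.21 at day 15 (0.50). Lfng, a sugar transferase that tunes receptors for Delta-like ligands, rose by 2.09 ± 0.18 at day 4 (2.1e-10) and 0.90 ± 0.17 at day 15 (7.2e-05).

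Nrarp, a target that dampens the pathway, fell by 0.66 ± 0.19 at day 4 (edgeR adjusted p = 0.0028), or changed by 0.65 with library size alone, and changed by 0.04 ± 0.19 at day 15 (0.87). Hey2, a vascular Hey factor, changed by -0.69 ± 0.32 at day 4 (0.056), or 0.61 with library size alone, and rose by 1.04 ± 0.32 at day 15 (0.0058), a call lost when all libraries were thinned to the smallest total (0.78, adjusted p = 0.051).

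The genes named here had the largest called changes on the list at 1 day or more among those with a mean of at least 1 CPM. Dlk1, a non-canonical ligand that opposes Notch in muscle, had a mean of 1.12 ± 0.26 CPM in uninjured muscle, 11.9 ± 4.6 at day 4 and 56.8 ± 34.8 at day 11 (mean ± SD, n = 6), with changes of 3.38 ± 0.50, 5.20, 5.66 and 5.29 ± 0.54 at days 4, 7, 11 and 15 (edgeR adjusted p = 1.6e-06 at day 4 and 9.9e-09 at day 15). Its relative Dlk2 rose by 2.77 ± 0.48 at day 4 (1.3e-05) and 4.01 ± 0.48 at day 15 (1.0e-07) from 0 to 9 counts per uninjured library. Numbl, a Numb-like endocytic adaptor, rose by 2.69 ± 0.23 at day 4 (2.1e-10) and 2.52 ± 0.23 at day 15 (2.1e-09). The Deltex genes encode ubiquitin ligases that act on the receptor. Dtx4 rose by 2.58 ± 0.21 at day 4 (1.2e-10) and 1.90 ± 0.21 at day 15 (2.8e-08). Dtx1 changed by 0.48 ± 0.57 at day 4 (0.46) and rose by 3.10 at day 11 (2.0e-05) and 4.61 ± 0.56 at day 15 (1.2e-07), from 2 to 8 counts per uninjured library. Aph1c, a gamma-secretase subunit, rose by 2.82 ± 0.30 at day 4 (8.0e-09), but it has a near-identical neighbour in Aph1b, so how their reads were divided is uncertain.

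Sex differences did not pass the test for any of the 10 genes. In uninjured muscle 0 of 10 were called between females and males by edgeR or DESeq2 (0.642% of all genes called by edgeR), and 5 of 10 had an unadjusted p under 0.05, beside 12.6% of all genes. The lowest adjusted p was 0.15, for Jag1, whose 3 male libraries stood at 20.3 to 22.2 CPM and whose 3 female libraries stood at 8.04 to 13.8 CPM. In the joint test of whether the sexes responded differently at any of the 4 days, 0 of 10 were called by either tool (0.035% of all genes by edgeR) and 2 had an unadjusted p under 0.05, beside 6.197% of all genes. The lowest adjusted p there was 0.58, for Heyl, whose uninjured libraries stood at 13.7 to 19.2 CPM in males and 7.50 to 12.96 CPM in females, the reverse of their order at day 15. At day 15 alone the response of Heyl was 1.61 ± 0.38 larger in females than in males on the log2 scale (edgeR adjusted p = 0.078), the lowest adjusted p of any of the 10 genes at a single day, and this too missed the threshold. These tests count female day 11 replicate 3 as female. Without it 0 of 10 were called in the joint test, with a lowest adjusted p of 0.44, for Heyl, and the day 15 difference of Heyl was 1.56 ± 0.39 (adjusted p = 0.087). With 3 libraries per group, a difference that missed the threshold is not shown to be absent.

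Counting limits apply to 4 of the genes. In GENCODE M21, exons of Notch1, Dll1 and Dll4 overlap those of genes on the opposite strand and exons of Notch2 overlap Gm42820 on the same strand. The sources used here do not say how strand was handled in counting, so reads there cannot be assigned with certainty.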

How the data were processed

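Bulk RNA was measured in 30 libraries. Reads were aligned with STAR to mm39 and edgeR is also named, per the submitters' processing notes, with no versions. The deposited files hold whole-number counts, 1 per gene symbol and library, made by the authors; the sources used here do not name the counting program, annotation or strand setting. In the counts from 1 to 20 of a library, 65.5 to 77.5% were even, so both mates of a read pair may have been counted, and counts were halved as an alternative. Samples were grouped by the sex and time in their titles.

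Genes were kept by filterByExpr with the 10 groups (17136 kept, 9128 removed), scaled with TMM and fitted with edgeR 4.0.16 in R 4.3.3 (glmQLFit, 1 mean per group, all 30 libraries). Contrasts were tested with glmQLFTest, both sexes weighted equally. SE is the log2 fold change divided by the square root of F. DESeq2 1.42.0 was an alternative. Count ratios had 0.5 added to both counts and were compared by two-sided exact permutation of 6 against 6 libraries. Likeness used log2 CPM with a prior count of 2. The edgeR fit was tried on simulated counts for day 4 against uninjured muscle, and the other steps were not. The lowest chi-square per degree of freedom between replicates was 16.2, so no library was a copy of another in its group. Libraries of different groups were not compared in this way.

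Named genes are the 10 members always; of the pathway list, Notch3, Notch4, Rbpj, Lfng, Nrarp and Hey2 always and the 5 called genes with the largest change at each day at a mean of at least 1 CPM; for likeness, the 2 nearest genes of each member, passing over predicted genes; and Cdh5, Pecam1, Rgs5, Pax7, Myog, Mki67, Ckm, Adgre1 and Pdgfra. The members and lists were chosen with earlier results of these data known. Exon lengths and overlaps come from GENCODE M21, a different build from the counts, and are used for lengths and neighbours only. Alternatives were RLE size factors, library size alone, no low-count filter, CPM above 1 in 3 libraries, DESeq2, only the groups compared, a replicate block, halved counts, thinning to the smallest total, and leaving out each library in turn.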

Additional observations from a re-analysis of the deposited data

Results flagged for a closer look

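In 50 sets of 6 libraries (10 genes at 5 times), 5 held 1 library set apart from the others by more than Dixon's critical value of 0.625, where chance would give about 5% of sets. At day 11, female day 11 replicate 3 stood at 103.642 CPM for Notch2, with the other 5 at 28.7 to 43.9 CPM, and at 50.6082 CPM for Dll1, with the other 5 at 15.8 to 25.7 CPM; this is the library whose sex-linked genes go against its label. At day 7, female day 7 replicate 3 stood at 40.1518 CPM for Dll1, with the others at 24.1 to 28.0 CPM. For Hey1, female day 7 replicate 2 was low at 5.59441 CPM, with the others at 9.23 to 10.8 CPM, and female day 15 replicate 3 was high at 22.3923 CPM at day 15, with the others at 15.1 to 17.5 CPM. No difference between the sexes in the injury response was called for these genes.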

How the results depend on the processing

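The choice that moved the most values was the scaling. With library size alone the changes at day 4 were 0.63 for Dll4, 0.45 for Jag2, 1.10 for Hes1, 1.17 for Hey1, 1.03 for Notch4, 0.61 for Hey2 and 0.65 for Nrarp, in the other direction from TMM. At day 7 they were 1.13 for Dll4, 1.06 for Jag2, 1.09 for Hes1, 1.15 for Hey1 and 0.95 for Nrarp, and for Jag2 1.09 at day 11 and 0.82 at day 15; the median gene moved with them. That scaling called 10 members at day 7, 10 at day 11 and 1 from day 4 to day 7, and 38 and 40 pathway genes at days 7 and 11. It split all genes into 12603 higher and 1482 lower, 12665 and 1212, 12652 and 1385, and 11956 and 1360 at days 4, 7, 11 and 15, beside 6864 and 5662, 7127 and 5132, 7319 and 5087, and 6809 and 5014 with TMM. Thinning to the smallest total gave 0.041 for Dll4, 0.079 for Hey1 and -0.27 for Hey2 at day 7 and 0.037 for Jag2 at day 11, none of them called. Fitting only the groups compared gave -0.0019 for Rbpj at day 7 and 1 member called from day 11 to day 15; the cause was not tested.

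Leaving out 1 library moved uncalled values across 0: Dll4 (-0.24 to 0.066), Hes1 (-0.15 to 0.019), Hey1 (-0.16 to 0.091), Rbpj (-0.12 to 0.17), Hey2 (-0.064 to 0.62) and Nrarp (-0.30 to 0.0051) at day 7, Hes1 (-0.29 to 0.27), Jag2 (-0.54 to 0.11) and Rbpj (-0.0083 to 0.27) at day 11, and Nrarp (-0.066 to 0.21) at day 15. Member counts ran from 1 to 3 for day 7 against day 4 and from 2 to 5 for day 15 against day 11. The ratio of Hes6 to Hes1 at day 15 ran from -0.58 to -0.31, and that of Dll4 to Cdh5 from -0.14 to 0.091 at day 7 and from 0.19 to 0.38 at day 15; 2 of the 12 fits took each of the 2 day 15 ratios past the threshold.

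Counts over all genes that moved by more than 1.5 times were day 11 against day 7 (10, against 5 with library size alone, 1 with the groups compared, 121 with DESeq2, and 3 to 31 without 1 library), day 15 against day 11 (727, against 412 with the groups compared, 1264 with DESeq2 and 301 to 1506 without 1 library), day 7 against day 4 (6034, against 3974 to 6777 without 1 library), females against males in uninjured muscle (110, against 47 when thinned, 254 with the groups compared, 323 with DESeq2 and 32 to 168 without 1 library) and the joint sex test (6, against 3 with halved counts, 102 with DESeq2 and 0 to 13 without 1 library).

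Replicate numbers did not pair the libraries. Deviations of same-numbered libraries had a mean r of -0.018 over 60 pairs, against 0.0087 over 120 pairs with other numbers, and 7 of 30 libraries correlated best with their own number. A replicate block gave 8, 6, 6 and 9 members called at days 4, 7, 11 and 15, and 3, 0, 3 and 8 for day 7 against day 4, day 11 against day 7, day 15 against day 11 and day 15 against day 4, the counts without it; the all-gene count of females against males went from 110 to 52. Depth was lowest at day 15, at 13089999 to 30024528 counts per library, and the members still had 237 to 1832 counts there.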
